A study of Mus musculus with 15 samples.

Results

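The Fc receptor genes examined here were the 3 activating Fc gamma receptor genes of the mouse (Fcgr1, Fcgr3 and Fcgr4), the inhibitory receptor gene Fcgr2b, the gene of the shared signalling chain Fcer1g, and Fcgrt, which encodes the heavy chain of the neonatal Fc receptor FcRn. They were chosen by name as members of this family, with earlier results of these data known. All 6 were found among the 50554 genes of the deposited tables. All 6 also passed the filter on low counts that left 20865 genes for testing. The study measured them by bulk RNA sequencing in bone marrow-derived dendritic cells (BMDCs), the dendritic-like cells that grow out of mouse marrow kept in GM-CSF. Every donor mouse carried a CreERT2 transgene, a Cre recombinase that works only after tamoxifen, and every mouse received tamoxifen. The Δ/+ mice were Mysm1 fl/+ before recombination and kept a wild-type allele of Mysm1, a chromatin-binding deubiquitinase. The Δ/DN mice were Mysm1 fl/DN and kept an allele whose product has no catalytic activity. Marrow was taken over 12 weeks after tamoxifen and cultured for 9 days, and the cells then spent 18 h without stimulus (US) or with 10 ng/mL lipopolysaccharide (LPS), the bacterial outer membrane component sensed by TLR4. Δ/+ cells gave 4 US and 3 LPS libraries and Δ/DN cells gave 4 of each kind. They came from 8 cultures, and 7 of these were sequenced both without and with LPS. The sources used here do not give the promoter that drives CreERT2, the age of the mice, or whether each culture came from its own mouse. The p-values below therefore measure the spread between these cultures only.

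The receptors for the Fc part of IgG let a dendritic cell or macrophage take up antigen that is bound by antibody. FcγRI (Fcgr1), FcγRIII (Fcgr3) and FcγRIV (Fcgr4) bind IgG but depend on the FcR gamma chain (Fcer1g) to reach the surface stably and to signal, because that chain carries the ITAM motif that recruits the kinase SYK. FcγRIIB (Fcgr2b) carries its own inhibitory ITIM motif, which recruits the phosphatase SHIP1 (Inpp5d), and the balance of activating and inhibitory receptors sets the threshold for activation by immune complexes. FcRn (Fcgrt) works inside the cell with beta-2 microglobulin, where it binds IgG in acidic endosomes, returns it to the surface and, in dendritic cells, takes part in the handling of immune complexes for presentation.

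The promoters of 4 of the genes, Fcgr1, Fcgr4, Fcgr3 and Fcer1g, are shown first, since the members did not move as 1 block. Each is the stretch of 250 bases before the RefSeq start site in a table of build GRCm38.p6, written 5′ to 3′ on the gene's own strand. Capitals mark matches, on either strand, to 3 motifs. They were GAAA and GAAA with 2 free bases between them (the core of an interferon-stimulated response element, ISRE), GGG and TTTCC with 2 free bases between them (kappaB-type), and GAGGAA (an ETS core of the type bound by PU.1). No match overlapped another.
Fcgr1, chr3:96293970-96294219, minus strand: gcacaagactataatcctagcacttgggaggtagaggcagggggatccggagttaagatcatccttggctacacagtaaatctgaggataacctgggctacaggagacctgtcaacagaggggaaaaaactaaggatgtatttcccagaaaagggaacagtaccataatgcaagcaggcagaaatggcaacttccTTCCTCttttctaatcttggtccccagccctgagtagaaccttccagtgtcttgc
Fcgr4, chr1:171018676-171018925, plus strand: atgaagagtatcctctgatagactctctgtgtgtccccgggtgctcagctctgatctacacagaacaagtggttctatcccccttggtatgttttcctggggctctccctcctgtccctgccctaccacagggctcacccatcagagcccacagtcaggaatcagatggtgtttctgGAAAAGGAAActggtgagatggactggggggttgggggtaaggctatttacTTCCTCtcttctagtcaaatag
Fcgr3, chr1:171059404-171059653, minus strand: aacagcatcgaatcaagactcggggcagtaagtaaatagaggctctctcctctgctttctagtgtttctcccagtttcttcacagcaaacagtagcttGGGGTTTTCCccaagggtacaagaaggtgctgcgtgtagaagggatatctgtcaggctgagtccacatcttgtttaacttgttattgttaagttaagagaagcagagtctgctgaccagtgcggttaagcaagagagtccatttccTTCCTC
Fcer1g, chr1:171234350-171234599, minus strand: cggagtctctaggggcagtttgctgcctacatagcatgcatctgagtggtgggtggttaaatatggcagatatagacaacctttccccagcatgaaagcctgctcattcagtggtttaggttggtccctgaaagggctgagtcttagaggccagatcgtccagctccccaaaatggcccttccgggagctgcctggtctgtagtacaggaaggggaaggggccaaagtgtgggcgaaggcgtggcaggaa
The Fcgr1 promoter held TTCCTC, the ETS core on the other strand, from 55 to 50 bases before the start. Fcgr4 held GAAAAGGAAA, a match to the ISRE letters, at 73 to 64 bases and TTCCTC at 22 to 17 bases. Fcgr3, for which the table lists 2 start sites, held GGGGTTTTCC, a kappaB-type match, at 152 to 143 bases and TTCCTC at 6 to 1 bases before the first of them. No match to these letters was found in the windows of Fcer1g, Fcgr2b or Fcgrt. Among 32851 promoters of the same length, the ETS core occurred in 23.3%, the ISRE letters in 2.98% and the kappaB-type letters in 1.41%. The matches are a description of the sequence and were not tested for binding.

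Each library held 37256651 to 104041282 reads assigned to genes. Levels are given as CPM, the counts scaled to library size with the TMM factors of edgeR, which ran from 1.04 to 1.33 in the US libraries and from 0.734 to 0.94 in the LPS libraries. Under plain library totals the median of all genes moved with LPS by -0.73 in Δ/+ and -0.67 in Δ/DN on the log2 scale, against -0.08 and -0.09 with TMM, so the changes below are relative to the bulk of genes. The number 2 or 3 in front of a library's name is called its library set here, and all 3 Δ/+ LPS libraries belonged to set 2. The series text and the sample fields disagree on which letter of the mouse groups stands for which genotype. Genotypes are given as on the samples, and every direction between genotypes would turn round if the series text were right. Mysm1 itself was at 46.3 to 54.1 CPM in Δ/+ US, 41.3 to 44.6 in Δ/+ LPS, 28.1 to 48.9 in Δ/DN US and 30.8 to 40.0 in Δ/DN LPS, which does not check the labels because each genotype keeps 1 undeleted allele. Of the 12 listed dendritic cell markers, at least 10 averaged 1 CPM or more in every group, but their levels differed widely. Zbtb46 (18.5 to 77.1 CPM over the libraries), Itgax (842 to 1750) and Cd74 (2820 to 7740) were present. Flt3 lay at 0.754 to 2.66 CPM, Xcr1 at 0 to 0.854, Clec9a at 0.548 to 3.4 and Cd209a at 0.13 to 1.47. At least 10 of 11 macrophage markers averaged 1 CPM or more in every group, and the summed B cell, NK cell and T cell lists stayed at or under 3.15 CPM. Δ/DN culture 4 stood apart, with a summed neutrophil list of 952 CPM without and 1131 with LPS against 50.7 to 187 elsewhere, and was the only culture with Xist and without Y-linked reads. In bulk RNA, fewer cells of a type and less RNA per cell cannot be told apart.

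The family covered a wide range of levels. By CPM per kb of the deposited gene length, which allows genes to be compared, Fcer1g was the highest in every group, at 252 ± 24.3 (SD, n = 4) in Δ/+ US and 526 ± 47.0 (SD, n = 3) in Δ/+ LPS. Fcgr1, Fcgr2b and Fcgr3 followed within a narrow band, at 43.8 ± 13.5, 36.1 ± 4.76 and 38.2 ± 5.55 CPM per kb in Δ/+ US (SD, n = 4), where the neighbours in the order Fcgr1, Fcgr3, Fcgr2b overlapped. Fcgrt (5.27 ± 1.48) and Fcgr4 (1.29 ± 0.277) were far below them. With LPS the middle band spread out in Δ/+, to 79.0 ± 10.8 for Fcgr1, 38.5 ± 3.33 for Fcgr2b and 20.8 ± 2.03 for Fcgr3 (SD, n = 3), with no overlap between neighbours in the order of the 6 genes. In Δ/DN the order with LPS was Fcer1g, Fcgr1, Fcgr2b, Fcgr3, Fcgr4, Fcgrt, and the pairs Fcgr1 and Fcgr2b, and Fcgr4 and Fcgrt, overlapped. The place of Fcgr3 depends on its length. The deposited tables give it 9912 bases against 1347 for the longest coding transcript in GENCODE, and with that shorter length it came to 281 ± 40.8 CPM per kb in Δ/+ US, next to Fcer1g at 243 ± 23.4. Comparisons of 1 gene between groups do not use the length.

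**Figure D1:**
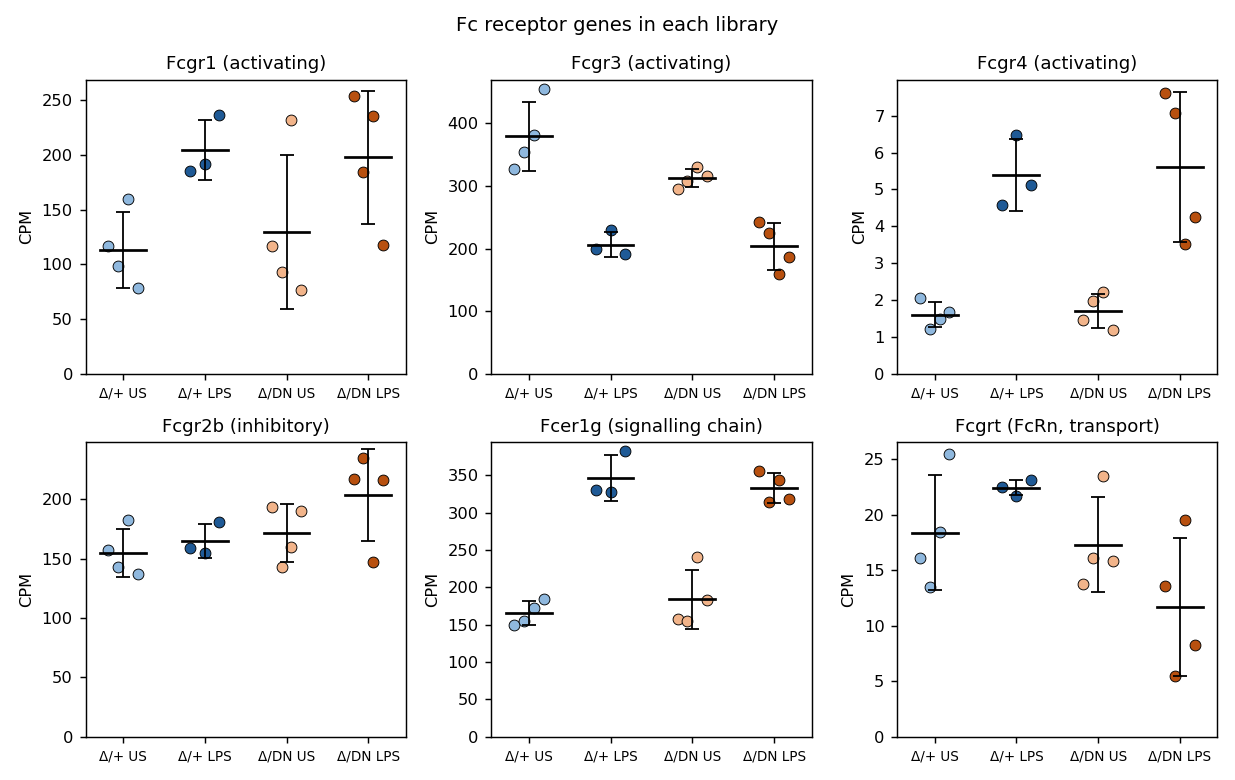
CPM (TMM-scaled, linear axis from 0) of the 6 Fc receptor genes in each of the 15 libraries, by group. Points are libraries, horizontal lines are group means and bars are 1 SD. Fcer1g and Fcgr4 lie higher and Fcgr3 lower in every LPS library than in any US library of the same genotype.

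With LPS the signalling chain and the rarest activating receptor rose, and another activating receptor fell, in both genotypes. Fcer1g rose 2.17-fold in Δ/+ and 1.83-fold in Δ/DN, Fcgr4 rose 3.15-fold and 3.19-fold, and Fcgr3 fell to 0.543 and 0.65 of its US level. Thus 3 of the 6 genes were called in each genotype, 2 higher and 1 lower, at an adjusted p under 0.05 (edgeR's quasi-likelihood test, Benjamini-Hochberg over all genes tested). LPS altered much of the transcriptome, and 47.7% of all genes tested were called in Δ/+ (22.4% higher, 25.3% lower) and 48.2% in Δ/DN (23.1% higher, 25.1% lower), so the share of members called was close to that background. In 52.1% of all genes in Δ/+ and 40.9% in Δ/DN the LPS and US libraries did not overlap.

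Fcer1g was the most regular of the 6. Its CPM in the Δ/+ US libraries, in the order of replicates 1 to 4, was 150, 155, 173 and 185, and in the 3 Δ/+ LPS libraries 330, 327 and 382. In Δ/DN it was 157, 155, 240 and 183 without LPS and 356, 314, 344 and 318 with LPS. Every LPS library lay above every US library of both genotypes. The log2 difference was 1.12 ± 0.12 (SE, adjusted p = 3.5e-06) in Δ/+ and 0.87 ± 0.11 (adjusted p = 1.78e-05) in Δ/DN. Within cultures the change spanned only 1.07 to 1.15 in the 3 Δ/+ cultures, and 0.52 to 1.18 in the 4 Δ/DN cultures, where the smallest belonged to culture 3 with its high US level of 240 CPM. Within set 2 the Δ/DN difference was 1.13 and within set 3, with 2 libraries against 2, it was 0.65 and not called (adjusted p = 0.134). Under library totals the difference was 0.46 in Δ/+ and 0.30 in Δ/DN, and it was still called.

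Fcgr4, the receptor for IgG2a and IgG2b found on monocytes, macrophages and neutrophils, was scarce in unstimulated cells. It stood at 2.05, 1.23, 1.49 and 1.68 CPM in the 4 Δ/+ US libraries and 4.57, 6.47 and 5.11 in the 3 Δ/+ LPS libraries, from 94 to 161 and from 335 to 401 reads. In Δ/DN the US libraries had 1.47, 1.97, 2.21 and 1.19 CPM and the LPS libraries 7.62, 7.07, 3.52 and 4.26. The groups did not overlap in either genotype, and Δ/DN LPS split into a higher pair, cultures 1 and 2 of set 2, and a lower pair, cultures 3 and 4 of set 3. The log2 difference was 1.65 ± 0.28 (SE, adjusted p = 0.000185) in Δ/+ and 1.67 ± 0.26 (adjusted p = 8.59e-05) in Δ/DN, and 1.00 and 1.11, still called, under library totals. The Δ/DN difference was 2.12 within set 2 and 1.20 within set 3 (adjusted p = 0.134). Culture 4 of Δ/DN, where neutrophil markers were highest, had the lowest US level of Fcgr4 of all libraries, 1.19 CPM. Its LPS level, 4.26 CPM, was above the 3.52 CPM of culture 3 and below cultures 1 and 2. The part of neutrophils in the Fcgr4 values was not tested.

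Fcgr3, the low-affinity activating receptor, went the other way. The Δ/+ US libraries had 326, 354, 381 and 454 CPM and the Δ/+ LPS libraries 199, 229 and 191. In Δ/DN it was at 295, 308, 330 and 315 CPM without LPS and at 243, 224, 159 and 187 with LPS. Every LPS library was below every US library. The log2 difference was -0.88 ± 0.15 (SE, adjusted p = 0.0002) in Δ/+ and -0.62 ± 0.13 (adjusted p = 0.00139) in Δ/DN, and -1.53 and -1.20 under library totals. Within set 2 the Δ/DN difference was -0.34 (adjusted p = 0.0365) and within set 3 it was -0.90 (adjusted p = 0.0526). The value was lower with LPS in all 7 cultures, with changes of -0.63 or more negative in Δ/+ and of -1.05 to -0.28 in Δ/DN. Fcgr3 and Fcgr2b are close relatives, and 9.58% of the 50-base stretches of Fcgr3 transcripts also occur in Fcgr2b, so reads from those stretches may have been assigned to either gene or dropped.

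Fcgr1, the high-affinity IgG receptor, had higher values with LPS in all 7 cultures on the TMM scale. In Δ/DN culture 3 the log2 change was only 0.02, and in the other cultures it was 0.56 or more. However, its level before LPS differed so much between cultures that the comparison of groups did not pass the test. It was at 117, 98.8, 160 and 78.3 CPM in Δ/+ US and 185, 192 and 236 in Δ/+ LPS. In Δ/DN the values were 117, 92.7, 232 and 76.8 without LPS and 254, 184, 235 and 118 with LPS. The Δ/+ groups did not overlap, while in Δ/DN the US library of culture 3 was as high as the LPS libraries and the LPS library of culture 4 as low as the US libraries. The log2 difference was 0.83 ± 0.38 (SE, adjusted p = 0.0894) in Δ/+ and 0.60 ± 0.35 (adjusted p = 0.188) in Δ/DN. With culture as a replicate block, which sets each LPS library against its own US library, it was 0.73 (adjusted p = 0.00454) and 0.69 (adjusted p = 0.00261), in a fit that called 50.5% and 52.6% of all genes. Without Δ/DN culture 3 the comparison of groups also called Fcgr1 in both genotypes, at 0.72 (adjusted p = 0.00444) and 0.93 (adjusted p = 0.00119). Leaving out only the US library of that culture gave 0.76 (adjusted p = 0.0139) and 1.14 (adjusted p = 0.00129), and leaving out Δ/+ US replicate 3 gave 1.07 (adjusted p = 0.0492) in Δ/+. Voom with a culture correlation called it in both genotypes, at 0.81 (adjusted p = 0.0396) and 0.68 (adjusted p = 0.0477), and DESeq2 in Δ/+ only, at 0.88 (adjusted p = 0.0292) against 0.65 (adjusted p = 0.0833) in Δ/DN. Within set 2 it was called at 0.72 (adjusted p = 0.011) and 1.09 (adjusted p = 0.00415), and within set 3, in Δ/DN, it was 0.20 (adjusted p = 0.882). Under library totals it was 0.17 and 0.05 and not called.

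**Figure D2:**
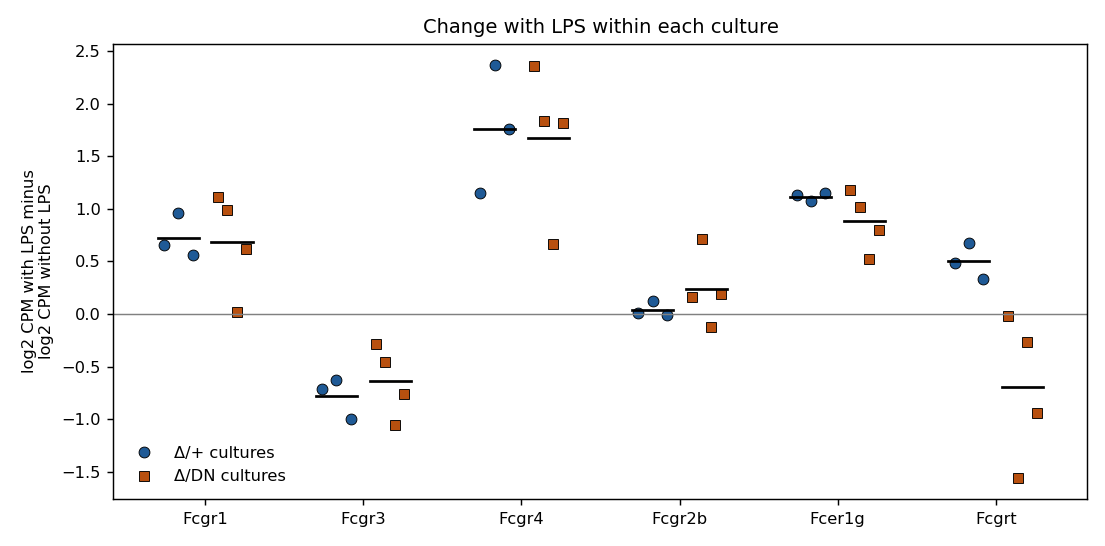
Log2 CPM with LPS minus log2 CPM without LPS for each of the 7 cultures with both libraries (circles, 3 Δ/+ cultures; squares, 4 Δ/DN cultures; lines, means), all TMM-scaled; under library totals the fitted Fcgrt difference was negative in both genotypes. Fcer1g, Fcgr4 and Fcgr1 are above 0 and Fcgr3 below 0 in all 7 cultures, while Fcgrt is above 0 in all Δ/+ and below 0 in all Δ/DN cultures. The smallest changes were 0.02 for Fcgr1 in Δ/DN culture 3 and -0.02 for Fcgrt in Δ/DN culture 1.

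The US level of Fcgr1 was set beside a list of 24 interferon-stimulated genes, because Fcgr1 is a known interferon target. All 24 rose with LPS in both genotypes, where 22.4% of all genes tested were higher in Δ/+ and 23.1% in Δ/DN. For example, the transcription factor gene Irf1 rose by 2.67 ± 0.26 (Δ/+, log2, SE, adjusted p = 1.66e-06) and 2.47 ± 0.24 (Δ/DN, adjusted p = 2.36e-06). None of the 24 was called between genotypes in either condition (none at an unadjusted p under 0.05, and none by DESeq2 or voom). Of all genes tested, 10.5% were called between genotypes without LPS and 8.6% with LPS. However, within set 2 alone 12 of the 24 were lower in Δ/DN without LPS. The mean log2 CPM of the list, each gene centred on its own mean over the 15 libraries, was -0.07 in the US library of Δ/DN culture 3 and -2.72 to -2.22 in the other 3 Δ/DN US libraries. In Δ/+ US it was -3.71 in replicate 4 and -1.92 to -1.28 in the other 3. The US libraries with the highest and second highest list values, Δ/DN culture 3 and Δ/+ replicate 3, were also those with the most Fcgr1, 232 and 160 CPM. At the low end the order differed, since the lowest list value (-3.71, Δ/+ replicate 4) came with 78.3 CPM, and the least Fcgr1 of the US libraries, 76.8 CPM in Δ/DN culture 4, with a list value of -2.22. Within the LPS libraries the list ran from 1.56 to 2.61, and the lowest value was in the library with the least Fcgr1, Δ/DN culture 4 at 118 CPM. The highest, 2.61 in Δ/+ replicate 2, came with 192 CPM, while the most Fcgr1, 254 CPM in Δ/DN culture 1, came with 2.29. The part of this pattern in the Fcgr1 values was not tested.

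**Figure D3:**
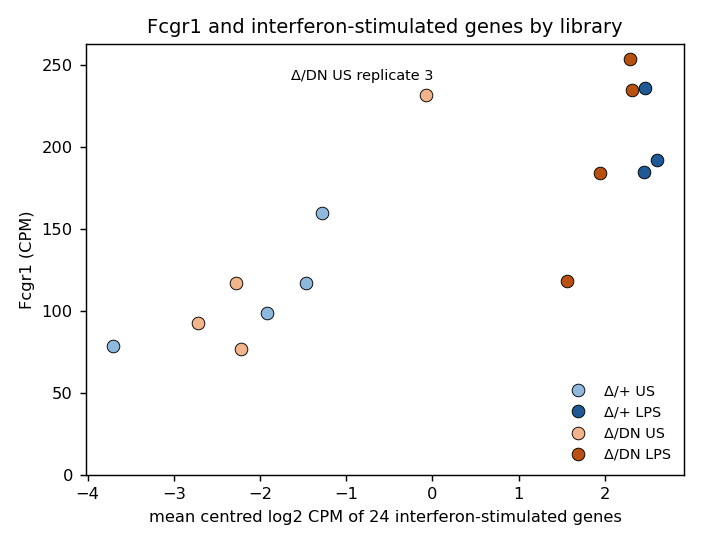
Fcgr1 (CPM, linear axis from 0) against the mean centred log2 CPM of 24 interferon-stimulated genes, 1 point per library (n = 15). The US library of Δ/DN culture 3 lies at -0.07 and 232 CPM, between the other US libraries and the LPS libraries on the x axis and level with the LPS libraries on the y axis.

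Fcgr2b, the only inhibitory Fc gamma receptor, was not called with LPS in either genotype. It was at 157, 143, 183 and 137 CPM in Δ/+ US and 159, 155 and 181 in Δ/+ LPS. In Δ/DN the US libraries had 194, 143, 160 and 190 CPM and the LPS libraries 217, 235, 147 and 216. The groups overlapped in both genotypes. The log2 difference was 0.06 ± 0.15 (SE, 95% interval -0.27 to 0.38, adjusted p = 0.798) in Δ/+ and 0.23 ± 0.14 (interval -0.06 to 0.53, adjusted p = 0.184) in Δ/DN. This is relative to a scaling: under library totals Fcgr2b was at -0.59 (adjusted p = 0.00869) in Δ/+ and -0.34 (adjusted p = 0.0766) in Δ/DN. Without the LPS library of Δ/DN culture 3, which had 147 CPM, the Δ/DN difference was 0.36 (adjusted p = 0.033). The antisense gene Gm38204 overlaps Fcgr2b in the annotation and shares 107 of its 50-base stretches, and whether counting used strand is not stated in the sources used here.

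Ratios within a library do not depend on the scaling, so each activating receptor gene was also set against Fcgr2b as the log2 ratio of CPM per kb. Fcgr1 over Fcgr2b averaged 0.24 ± 0.25 (SD, n = 4) in Δ/+ US and 1.03 ± 0.08 (SD, n = 3) in Δ/+ LPS, and 0.20 ± 0.77 and 0.65 ± 0.67 (SD, n = 4 each) in Δ/DN. Fcgr4 over Fcgr2b averaged -4.82 ± 0.35 and -3.17 ± 0.32 in Δ/+, and -4.90 ± 0.59 and -3.45 ± 0.37 in Δ/DN. Fcgr3 over Fcgr2b averaged 0.08 ± 0.32 and -0.89 ± 0.25 in Δ/+, and -0.34 ± 0.24 and -1.21 ± 0.17 in Δ/DN. The level and sign of each ratio depend on the deposited gene lengths, while its changes between libraries do not. By GENCODE lengths Fcgr3 was well above Fcgr2b, at 281 against 43.7 CPM per kb in Δ/+ US. Within cultures the first ratio was higher with LPS in all 7, by 0.14 to 0.95, the second in all 7, by 0.79 to 2.28, and the third lower in all 7, by -1.17 to -0.44. The activating receptors therefore did not move together against the inhibitory one. The Fcgr3 ratio was also lower in Δ/DN than in Δ/+ in its means, with overlapping US libraries (-0.61 to -0.10 against -0.16 to 0.53) and overlapping LPS libraries (-1.42 to -1.04 against -1.13 to -0.64), and this difference was not tested.

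**Figure D4:**
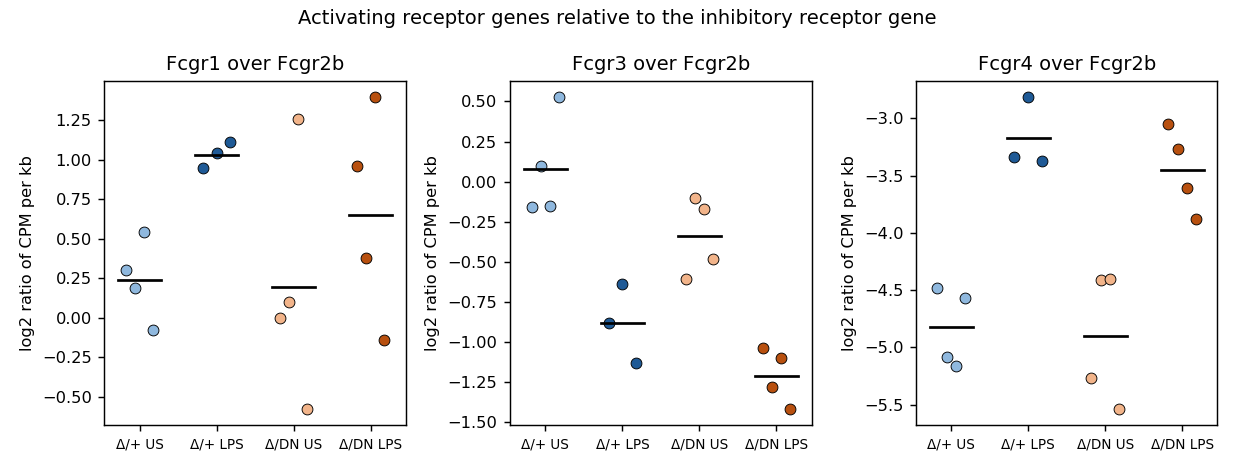
Log2 ratio of CPM per kb of Fcgr1, Fcgr3 and Fcgr4 over Fcgr2b in each library, by group. Points are libraries and lines are means. The deposited gene lengths were used, and the level and sign of the ratios depend on them. With LPS the means of the Fcgr1 and Fcgr4 ratios are higher and that of the Fcgr3 ratio lower in both genotypes, and the Δ/DN values of Fcgr1 spread from -0.58 to 1.26 without LPS.

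Fcgrt was the member with a called difference between genotypes. It was at 16.1, 13.5, 18.4 and 25.5 CPM in Δ/+ US and 22.5, 21.7 and 23.1 in Δ/+ LPS. In Δ/DN it was at 13.8, 16.1, 23.5 and 15.8 CPM without LPS and at 13.6, 5.43, 19.5 and 8.23 with LPS. The 4 Δ/DN LPS libraries all lay below the 3 Δ/+ LPS libraries, whereas the US groups overlapped. Fcgrt was lower in Δ/DN with LPS by a log2 difference of -1.23 ± 0.32 (SE, adjusted p = 0.036), to 0.426 of the Δ/+ level, and was the only member of the 6 called between genotypes. In that comparison 8.6% of all genes were called (5.37% higher, 3.23% lower), and 24.6% had groups that did not overlap. Neither genotype's own change with LPS passed the test, at 0.45 ± 0.30 (adjusted p = 0.248) in Δ/+ and -0.58 ± 0.28 (adjusted p = 0.103) in Δ/DN. Under library totals both were negative, at -0.21 (adjusted p = 0.494) and -1.18 (adjusted p = 0.000524), and the second was called. With TMM and without the LPS library of Δ/DN culture 1 or 3 the Δ/DN change was -0.86 and -0.84 (adjusted p = 0.0248 in both fits). With culture as a block it was -0.69 (adjusted p = 0.0262) and the Δ/+ change 0.50 (adjusted p = 0.127). Within cultures, on the TMM scale, Fcgrt was higher with LPS in all 3 Δ/+ cultures, by 0.33 to 0.68, and lower in all 4 Δ/DN cultures, by -1.56 to -0.02. The difference between the LPS effects was -1.03 ± 0.41 (adjusted p = 0.473), and -1.18 (adjusted p = 0.164) with culture as a block, so it did not pass the test over all genes. An antisense gene, Gm45669, overlaps Fcgrt in the annotation, as Gm38204 does Fcgr2b, and strand use in counting is not stated. No 50-base stretch of Fcgrt transcripts occurs in another gene.

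The lower Fcgrt in Δ/DN LPS had the same direction in every fit, with log2 differences from -1.60 to -0.94, but it was not called in all of them. It was kept in 10 of the 15 fits that left out 1 library, and in 3 of the 7 that left out a library of the compared groups. It was lost without Δ/DN LPS replicate 2, whose 5.43 CPM was the lowest value (-0.95, adjusted p = 0.11). It was also lost, at nearly the same size, without Δ/+ LPS replicate 1, 2 or 3 (-1.23, -1.26 and -1.21, adjusted p = 0.0977, 0.122 and 0.067) and without Δ/+ US replicate 4 (-1.22, adjusted p = 0.054). Further fits that lost it were those without the count filter (-1.23, adjusted p = 0.0939), without the set term (-0.94, adjusted p = 0.107) and with the replicate number as a block (-1.05, adjusted p = 0.065). Within library set 2 the difference was -1.24 (adjusted p = 0.0403), and without Δ/DN culture 3 it was -1.38 (adjusted p = 0.0126). Single markers of other cell types ran both with and against Fcgrt among the Δ/DN LPS libraries. In the order of cultures 1 to 4, Mrc1, the mannose receptor gene of the macrophage list, was at 281, 147, 308 and 198 CPM, and F13a1 of the monocyte list at 66.2, 22.5, 108 and 43.7, the same order as Fcgrt. Gpnmb of the macrophage list, at 935, 1134, 646 and 964 CPM, and Cx3cr1 of the monocyte list, at 0.918, 3.70, 0.688 and 3.28, ran in the reverse order. These 4 genes were picked out after their values were seen. The summed macrophage list was at 2707, 2405, 2186 and 1977 CPM in Δ/DN LPS against 1880 to 1980 in Δ/+ LPS. The summed monocyte list was at 4149, 2873, 2243 and 1923 CPM against 3571 to 4335, so that 3 of the 4 Δ/DN LPS libraries lay below every Δ/+ LPS library, in the direction of Fcgrt. No marker of either list was at 0 in a whole group. The part of these cells in the Fcgrt result was not tested.

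None of the 6 genes was called between genotypes without LPS, where 10.5% of all genes were called (5.01% higher, 5.45% lower) and 12.5% had groups that did not overlap. None had an unadjusted p under 0.05, and DESeq2 and voom called none. The log2 differences (Δ/DN minus Δ/+) ran from -0.28 ± 0.14 (SE, 95% interval -0.57 to 0.01, adjusted p = 0.213) for Fcgr3 to 0.23 ± 0.37 (interval -0.58 to 1.04, adjusted p = 0.756) for Fcgr1. Leaving out the US library of Δ/DN culture 3 put Fcgr1 at -0.22. With LPS the remaining 5 genes were not called either. Fcgr2b was closest, at 0.38 ± 0.16 (interval 0.03 to 0.72, adjusted p = 0.157), with 3 of 4 Δ/DN LPS libraries (217, 235 and 216 CPM) above all Δ/+ LPS libraries and culture 3 (147 CPM) below them. With LPS the intervals for Fcer1g (-0.43 to 0.12), Fcgr3 (-0.34 to 0.31) and Fcgr1 (-0.89 to 0.86) all lay within a difference of 1 on the log2 scale, that of Fcgr1 being the widest of these. The LPS effects of the other 5 members did not differ between genotypes by a called amount, with differences from -0.24 to 0.26, nor by DESeq2 or voom, and Fcgrt alone had an unadjusted p under 0.05. Over all 20865 genes only 1 had a called difference of LPS effects (0.00479%), so this comparison called almost nothing.

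**Figure D5:**
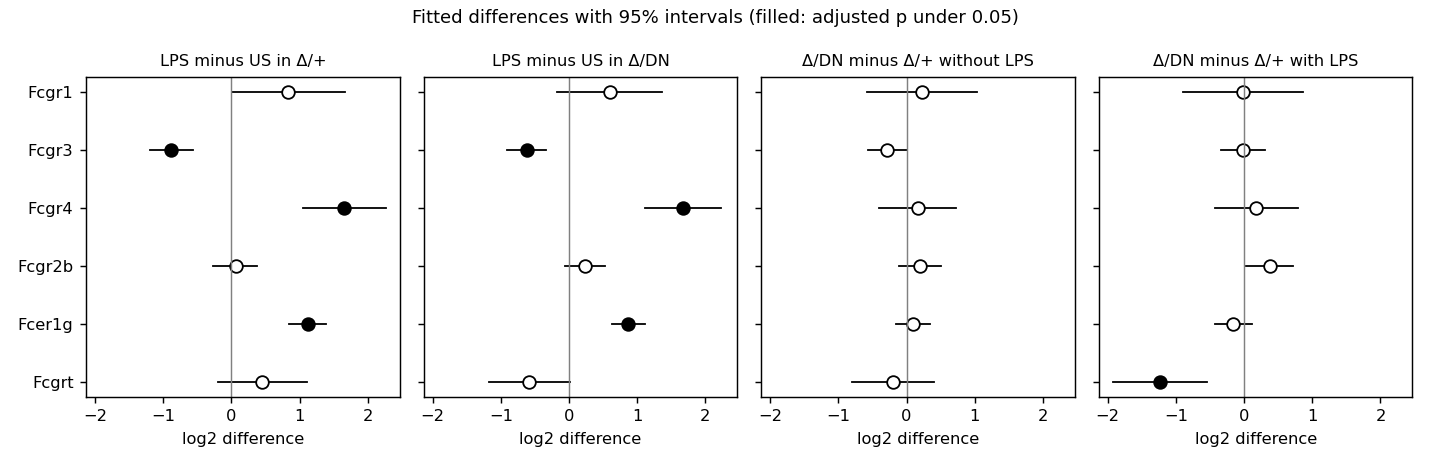
Fitted log2 differences (points) with 95% intervals (lines) of the 6 genes in 4 comparisons, from 1 edgeR model of all 15 libraries. Filled points had an adjusted p under 0.05: Fcgr3, Fcgr4 and Fcer1g with LPS in both genotypes, and Fcgrt between genotypes with LPS.

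The other receptors for immunoglobulin were represented by a list of 14 genes, of which 13 were in the tables and 8 passed the filter. With LPS 2 of the 8 were called, both higher in both genotypes. Of all genes tested, 22.4% were higher in Δ/+ and 23.1% in Δ/DN, so this count was close to that background. Trim21, the cytosolic receptor that captures antibody bound to incoming particles, rose by 3.68 ± 0.32 (Δ/+, log2, SE, adjusted p = 1.17e-06) and 3.00 ± 0.30 (Δ/DN, adjusted p = 4.3e-06), from a mean of 20.0 to 254 CPM and from 23.1 to 183. Fcrl1, an Fc receptor-like gene, rose by 1.87 ± 0.38 (adjusted p = 0.000893) and 1.15 ± 0.34 (adjusted p = 0.0119), with mean levels of at most 1.51 CPM. Its Δ/DN libraries overlapped, and under library totals the Δ/DN difference was not called (adjusted p = 0.184). None of the 8 was called between genotypes, where 10.5% of all genes tested were called without LPS and 8.6% with LPS. Of the 8, 1 had an unadjusted p under 0.05 in each condition. DESeq2 and voom each called 1 lower without LPS, as did voom with LPS. Fcer1a, the IgE-binding chain of mast cells that also uses the FcR gamma chain, averaged 0.0262 to 0.312 CPM.

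Below the receptors, genes of activating and of inhibitory signalling were called in both directions with LPS, where 47.7% of all genes tested were called in Δ/+ and 48.2% in Δ/DN. Of 30 genes of activating signalling, 15 were higher and 10 lower in Δ/+, and 16 and 9 in Δ/DN, with a median of 0.33 and 0.50 against -0.08 and -0.09 for all genes. Under library totals the split was 10 higher and 15 lower in Δ/+ and 11 and 13 in Δ/DN. Blnk, an adaptor downstream of SYK, rose by 2.22 ± 0.15 (Δ/+, adjusted p = 4.65e-08) and 2.03 ± 0.14 (Δ/DN, adjusted p = 5.78e-08), while Vav2, a guanine nucleotide exchange factor, fell by 2.68 ± 0.16 (adjusted p = 1.56e-08) and 1.82 ± 0.14 (adjusted p = 9.87e-08). Lat2, a membrane adaptor, fell by 1.85 ± 0.14 in Δ/+ (adjusted p = 1.23e-07). Of 14 inhibitory phosphatases and adaptors, 5 were higher and 6 lower in Δ/+, and 4 and 6 in Δ/DN, with a median of -0.42 and -0.13. Under library totals the split was 2 and 10, and 2 and 9, and without Δ/+ LPS replicate 3 the 5 higher were 3. Inpp5d, which encodes SHIP1, the phosphatase recruited by FcγRIIB, went from 129 to 17.4 CPM in Δ/+ and from 162 to 35.2 CPM in Δ/DN, to 0.134 (adjusted p = 2.51e-07) and 0.218 (adjusted p = 8.41e-07) of the US level. Sh2d1b1, an adaptor gene, fell by 2.96 ± 0.14 (adjusted p = 2.13e-09) and 2.92 ± 0.12 (adjusted p = 8.82e-10).

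Over all genes tested, 22.4% were higher and 25.3% lower with LPS in Δ/+, and 23.1% and 25.1% in Δ/DN. The list counts that follow were not tested against these shares. Among the 12 tested genes of other ITIM receptors, 5 were higher and 4 lower with LPS in Δ/+, and 6 and 4 in Δ/DN. Under library totals these counts were 2 and 5, and 3 and 6. Cd300a fell by 2.36 ± 0.13 (adjusted p = 1.04e-08) and 1.82 ± 0.11 (adjusted p = 2.38e-08), and Cd72 rose by 2.74 ± 0.31 (adjusted p = 4.73e-06) and 2.58 ± 0.29 (adjusted p = 4.51e-06). Of 12 tested partners of the FcR gamma chain and sister adaptors, 3 were higher in each genotype and 2 and 1 lower, against 3 higher and 6 and 7 lower under library totals. The 2 lower in Δ/+ were 1 in 9 of the 15 fits that left out a library. The 3 that rose were Gp6, the collagen receptor known from platelets, and Clec4d and Clec4e, C-type lectins that signal through the FcR gamma chain. Clec4e rose by 3.08 ± 0.38 (Δ/+, adjusted p = 2.02e-05), from a mean of 291 to 2240 CPM, and by 3.53 ± 0.38 (Δ/DN, adjusted p = 5.84e-06), from 148 to 1580 CPM. Of 10 genes for the FcRn light chain and recycling endosomes, 4 were higher and 1 lower in both genotypes, against 3 and 4 under library totals. Rab11fip1, an effector of RAB11 in recycling, rose by 2.33 ± 0.13 (adjusted p = 8.4e-09) and 2.61 ± 0.12 (adjusted p = 2.01e-09), and Ehd1, a recycling ATPase, rose by 1.99 ± 0.13 (adjusted p = 3.67e-08) and 2.25 ± 0.13 (adjusted p = 1.11e-08). Fcgrt was not called in the same comparisons.

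Between genotypes with LPS, 7 of the 30 activating genes were higher in Δ/DN and 1 lower, and 4 of the 14 inhibitory genes were higher and 1 lower, where 5.37% of all genes tested were higher and 3.23% lower. The list medians were 0.23 and 0.18 on the log2 scale against 0.01 for all genes. Vav2 was higher by 0.85 ± 0.16 (adjusted p = 0.00977), Lat2 by 0.79 ± 0.14 (adjusted p = 0.00963), Inpp5d by 1.03 ± 0.23 (adjusted p = 0.0189) and Ptpn6, which encodes the phosphatase SHP-1, by 1.10 ± 0.26 (adjusted p = 0.0256). For all 4 the Δ/DN libraries lay above the Δ/+ libraries, in a comparison where 24.6% of all genes tested had groups that did not overlap. These counts depended on single libraries, and over the 15 fits without 1 library the 7 ranged from 1 to 9 and the 4 from 0 to 5. Without Δ/+ LPS replicate 1, Δ/+ LPS replicate 2 or Δ/DN LPS replicate 2, the activating list had 2, 1 and 1 genes higher and the inhibitory list none. Without LPS, 3 activating genes were higher (Lat2 by 0.59 ± 0.12, adjusted p = 0.0133) and 3 lower (Lcp2, the adaptor SLP-76, by -0.65 ± 0.15, adjusted p = 0.0192, and 0.0566 without the set term). Of the inhibitory genes 2 were higher and 1 lower, and of all genes tested 5.01% were higher and 5.45% lower. Over the fits without 1 library the activating list had 0 to 4 higher and 0 to 5 lower. Without replicate 4 of Δ/+ US or replicate 2 of Δ/DN US, no gene of either list was called in that comparison. Of the 12 other ITIM receptor genes, 4 were higher in Δ/DN without LPS and 3 with LPS, and none lower. Over the fits without 1 library the 4 ranged from 0 to 5 and the 3 from 0 to 3. Of the 12 partners of the FcR gamma chain and sister adaptors, 2 were lower in Δ/DN without LPS, and 1 was higher and 1 lower with LPS. Of the 10 FcRn light chain and recycling genes, 2 were lower without LPS (0 to 4 over those fits) and none was called with LPS.

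The genes whose pattern over the 15 libraries was most like that of a member were found by the root mean square difference of centred log2 CPM among 13928 genes. Fcer1g had the closest companions, Med28 at 0.087, Ppp6r1 at 0.0873 and Lsm14a at 0.0917. For Fcgr3 they were Ddx56 (0.125), Flvcr1 (0.133) and Fbl (0.134), and for Fcgr2b the nearest 3 included Rpn2 (0.144) and Shc1 (0.145). Fcgr1 was nearest to Idi1 (0.254), the MHC class II gene H2-Aa (0.255) and Idi1-ps1 (0.258), and Fcgr4 to Pi4k2b (0.277), Ppa1 (0.299) and Gpd2 (0.305). For Fcgrt they were Rgs2 (0.22), Efnb1 (0.236) and Clec10a (0.278), the last of which averaged 79.7 CPM in Δ/+ LPS and 45.2 CPM in Δ/DN LPS. No member was among the nearest 3 of another member.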

How the data were processed

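The authors deposited 1 table per library with raw read counts per gene and a gene length; per the submitters' processing notes the tools were HISAT2 2.2.1, Trimmomatic 0.33, featureCounts, bedtools, edgeR and FastQC, and the builds mm39 and GRCm39. Per the labels' protocols, rRNA was depleted (KAPA RNA HyperPrep with RiboErase). Roles, parameters and strand use are not stated in the sources used here. Groups came from each sample's title and genotype field. The 15 libraries (37256651 to 104041282 reads) were fitted in 1 model of 4 groups with library set as a covariate, using edgeR 4.0.16 (R 4.3.3) with TMM scaling, filterByExpr with a minimum count of 10, the robust quasi-likelihood test and Benjamini-Hochberg adjustment over 20865 genes; a gene was called at an adjusted p under 0.05. SE is that of the log2 difference. Log2 CPM used a prior count of 2. The model was tested on simulated data in which genes differed by genotype only. That test did not cover LPS effects, library sets or cultures. The members and gene lists were chosen with earlier results of these data known. Named genes were all members and, in each list and comparison, the 3 called genes with the smallest p, of which some are printed.

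US and LPS libraries were paired by the culture name that they share. Deviations from group means correlated at 0.0643 to 0.428 within the 7 cultures and at -0.0885 to 0.146 between libraries that share only a number across genotypes. Alternatives were RLE factors, no filter, no set term, single sets, DESeq2 1.42.0, limma 3.58.1 voom with a culture correlation of 0.279, blocks, and leaving out libraries or Δ/DN culture 3; library totals and GENCODE lengths were added after the data were seen. RefSeq and GENCODE tables of GRCm38 gave promoters, lengths and shared stretches only, since the counts are on another build. A further motif and a gene are not reported here.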

Additional observations from a re-analysis of the deposited data

Results flagged for a closer look

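Fcgrt stood out because its change with LPS had opposite signs in the 2 genotypes with TMM scaling. Under library totals it was negative in both, at -0.21 in Δ/+ and -1.18 (adjusted p = 0.000524) in Δ/DN. The LPS effect in Δ/DN minus that in Δ/+ was -1.03 ± 0.41 (SE, log2, TMM), and -0.97 (adjusted p = 0.451) under library totals. With TMM there were higher values with LPS in 3 of 3 Δ/+ cultures and lower values in 4 of 4 Δ/DN cultures. The test of the difference did not pass (edgeR, adjusted p = 0.473), and the smallest change among the Δ/DN cultures, -0.02, was close to 0. No library lay apart from the rest of its group by Dixon's criterion in the 18 groups of 4 values tested.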

How the results depend on the processing

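The direction of the 3 called LPS responses (Fcer1g, Fcgr4, Fcgr3) held in both genotypes under every alternative run, and they stayed called except within set 3 of Δ/DN (2 libraries against 2), where Fcgr3 was at -0.90 (adjusted p = 0.0526), Fcgr4 at 1.20 (adjusted p = 0.134) and Fcer1g at 0.65 (adjusted p = 0.134), so 0 members were higher and 0 lower; fewer samples entered that fit. Set 2 alone and the fit without Δ/DN culture 3 each called 4 members higher with LPS in Δ/DN. The number of members lower with LPS in Δ/DN was 2 with the culture as replicate block, with voom and with library totals, and 1 to 2 when single libraries were left out; library totals also gave 2 lower in Δ/+. The block by culture changed only the calls of Fcgr1 and Fcgrt given in the report. Between genotypes with LPS, the number of members lower was 0 without the count filter (Fcgrt -1.23, adjusted p = 0.0939), without the set term (Fcgrt -0.94, adjusted p = 0.107) and with the replicate block by number (Fcgrt -1.05, adjusted p = 0.065), and 0 to 1 when single libraries were left out; 1 was higher without Δ/DN culture 3 (Fcgr2b 0.44, adjusted p = 0.0496). The cause of these shifts was not tested.

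The sign changes concerned differences that were not called with TMM. Under library totals they were Fcgr1 0.13 and Fcgr3 0.12 between genotypes with LPS, and with LPS Fcgr2b -0.59 and Fcgrt -0.21 in Δ/+ and Fcgr2b -0.34 in Δ/DN. Within set 2 they were Fcgr1 -0.28 and Fcer1g -0.05 between genotypes without LPS, Fcgr1 0.10 and Fcgr3 0.18 with LPS, and Fcgr1 0.37 and Fcer1g 0.00 for the difference of LPS effects. Without Δ/DN culture 3 they were Fcgr1 -0.19, Fcgr4 -0.07 and Fcer1g -0.03 without LPS, Fcgr1 0.02 and Fcgr3 0.05 with LPS, and Fcgr1 0.22 for the difference of LPS effects. Voom gave Fcgr1 0.04 and the replicate block by number 0.11 between genotypes with LPS; for the difference of LPS effects Fcgr4 was -0.03 without the set term and -0.09 with the block by culture. Leaving out single libraries, the ranges that crossed 0 were, without LPS, Fcgr1 -0.22 to 0.45, Fcgr4 -0.07 to 0.36 and Fcer1g -0.03 to 0.14; with LPS between genotypes, Fcgr1 -0.21 to 0.16 and Fcgr3 -0.15 to 0.06; for LPS in Δ/+, Fcgr2b -0.02 to 0.15; and for the difference of LPS effects, Fcgr1 -0.47 to 0.38 and Fcgr4 -0.14 to 0.32. Of all member values under alternatives, 649 kept their direction and side of the threshold, 45 changed sign, 21 passed the threshold only there and 11 no longer passed it. Depth limited Fcgr4 most, with 94 to 478 reads per library.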
